A study of Zea mays with 7 samples.

Results

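Among the wild-type ear pools of this maize RNA-seq series, 118 genes differed at least 4 times between the highest and the lowest pool. These genes were chosen by their wild-type values: the mean over the 3 wild-type pools had to reach 2 CPM (counts of a gene per 1000000 counts of its library), and the highest of the 3 pools had to be at least 4 times the lowest. They were found among 19366 genes with that mean, out of 110451 genes in the table, of which 45361 had at least 1 count in any library. The wild-type spread of the members is therefore a description of what was selected on, and only the Bif3 pools, which the rule did not use, bear on whether the same genes vary elsewhere.

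The study compared ear primordia of the Barren inflorescence3 (Bif3) mutant, homozygous per the study's methods and picked by mutant appearance per the labels, with those of wild-type siblings, both in the B73 inbred background, both grown in the field and both dissected at a length of 3–4 mm. The mutant carries the only known Bif3 allele, a tandem duplication that raises ZmWUS1, a homeobox gene of the stem cell niche, and it enlarges the inflorescence meristem. It gave 4 libraries, Bif3 replicates 1 to 4, and the siblings gave 3, wild-type replicates 1 to 3. Each library was a pool of 3 ears, so ears of one pool cannot be told apart, and no replicate number was treated as pairing a mutant with a wild-type pool. In such bulk libraries a lower value can come from fewer cells of a type or from less RNA per cell, and these cannot be told apart.

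A young maize ear grows by initiating meristems at its tip, so the tip is younger than the base, and the base carries spikelet pair, spikelet and then floral meristems in turn. Ears of one length can therefore hold different mixtures of meristems and of the organs that follow, such as glumes and other bract-like organs. Heat shock proteins are chaperones whose genes plant cells switch on within minutes of warming or other protein-damaging stress, and benzoxazinoids are defence compounds of young grass tissue made from indole by the Bx enzymes.

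Library totals ran from 42481699 to 50824983 counts in the Bif3 pools and from 41720131 to 56057512 counts in the wild-type pools, and the 10 most abundant genes held 1.81% to 2.02% of any library. ZmWUS1 stood at 4.47, 5.25, 3.83 and 12.5 CPM in Bif3 and at 0.551, 0.321 and 0.311 CPM in wild-type, without overlap. The members together held 0.112% to 0.213% of the counts in Bif3 and 0.0819% to 0.228% in wild-type. The ear primordium marker KN1, a homeobox gene of meristem cells, stood at 487 to 603 CPM in Bif3 and 414 to 498 CPM in wild-type, with a highest to lowest ratio of 1.24 and 1.20. A search for leaf photosynthesis symbols found 20 genes, 4 of them without a count in any pool, and only 2 of the 20 reached a wild-type mean of 2 CPM, por (a member) and a porin that matched by name alone. A name was given for few members: 84 of the 118 had an entry in the RefSeq gene table, 38 carried a name beyond a locus number, and 74 had neither such a name nor an annotation in the study's own list, so these are given by identifier only.

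To find which wild-type pool departed, each member was assigned to the pool farthest from the median of the 3 on the log2(CPM + 0.5) scale, as high or low there. Wild-type replicate 2 was high for 60 members and low for 4. Wild-type replicate 1 was high for 31 members and low for 11. Wild-type replicate 3 was high for 2 members and low for 10. The departures were thus mostly upward and mostly in replicates 1 and 2, and no single pool accounted for all of the members. With the ratio taken over the other 2 pools alone, 60 genes passed when wild-type replicate 1 was left out, 43 when replicate 2 was and 99 when replicate 3 was.

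**Figure D1:**
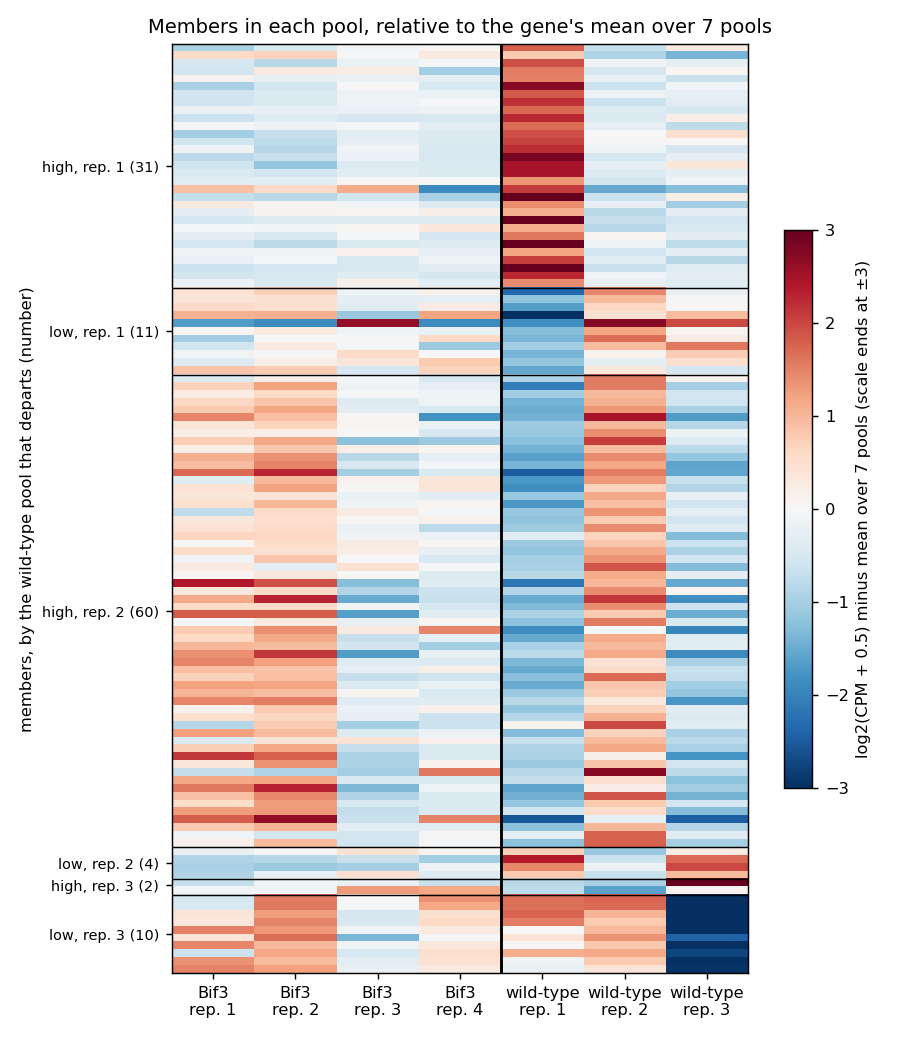
Heat map of the 118 members (down the page, grouped by the wild-type pool that departs, with the number in each group) in the 4 Bif3 and 3 wild-type pools (across); colour is log2(CPM + 0.5) minus the gene's mean over the 7 pools. The 60 genes high in wild-type replicate 2 are mostly red in Bif3 replicates 1 and 2 and blue or pale in Bif3 replicates 3 and 4, whereas the 31 genes high in wild-type replicate 1 are pale in all 4 Bif3 pools.

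The smallest ratios that still entered were 4.05 for GRMZM2G024718 and 4.05 for GRMZM2G062129. Just outside were GRMZM2G067919 (glb1, a globulin storage protein gene of seeds) at 3.98 and GRMZM2G091124 at 3.97. Over the members the ratio had a median of 6.61, against 1.19 over all 19366 genes.

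To ask whether the mutant pools vary in the same genes, the same ratio was taken over the 4 Bif3 pools. It reached 4 for 34 of the 118 members (28.8%, exact binomial 95% interval 20.8% to 37.9%, which treats genes as independent although they are not), beside 71 of all 19366 genes (0.367%). These 34 made up 47.9% of the 71 genes that varied in Bif3. A set of 4 pools gives a wider range than 3, and the count moved with single mutant pools: with Bif3 replicate 2 or Bif3 replicate 3 left out it was 21 members (17.8%), beside 0.222% and 0.207% of all genes. Without Bif3 replicate 1 it was 29 members and without Bif3 replicate 4 it was 28.

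The median Bif3 ratio was 2.43 over the members and 1.22 over all 19366 genes. Across genes the Bif3 ratio and the wild-type ratio had a Spearman's rho of 0.40 over the 118 members and 0.43 over all 19366 genes. The points are genes of the same libraries, with rare and abundant genes together, and no test was made. A count below a few reads makes any ratio large, and 9 members had a wild-type pool at 3 counts or fewer. For these the lowest pool was set to 3 counts, and a fold against it is a lower bound that covers counting error only.

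**Figure D2:**
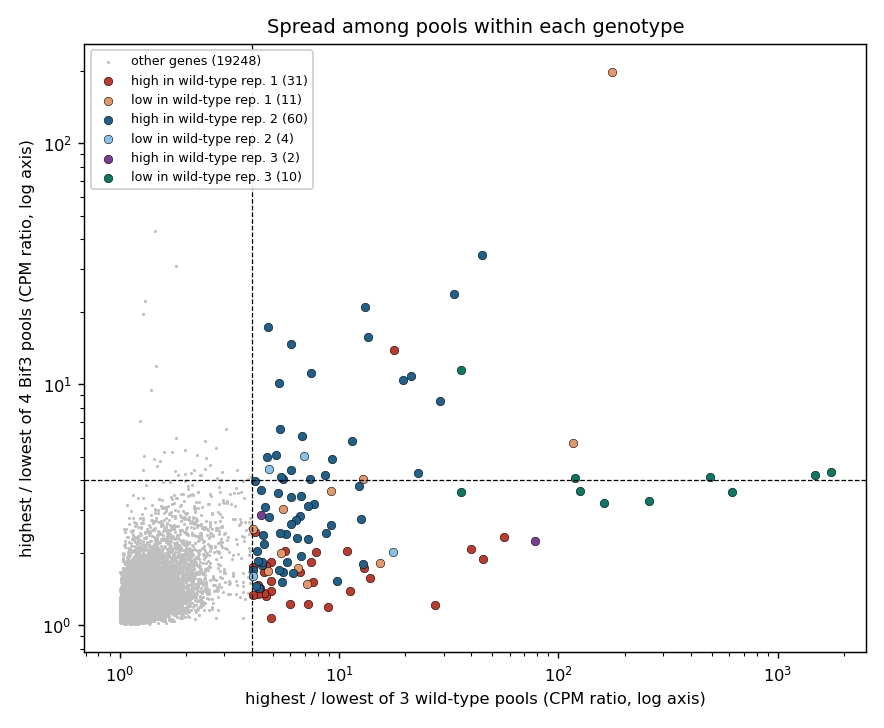
Ratio of the highest to the lowest pool within each genotype, for the 3 wild-type pools (x axis, log scale) and the 4 Bif3 pools (y axis, log scale), with pools under 3 counts set to 3 counts; each dot is 1 of 19366 genes and members are coloured by the wild-type pool that departs. The dashed lines mark a ratio of 4: members lie right of the vertical line by choice, and 34 of them lie above the horizontal one.

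The answer differed between the groups of members. Among the 60 genes high in wild-type replicate 2, 23 (38.3%) reached a ratio of 4 in Bif3, with a median Bif3 ratio of 3.15. Only 1 of the 31 genes high in wild-type replicate 1 did so, with a median of 1.57. Of the 10 genes low in wild-type replicate 3, 5 did so, with a median of 3.85, of the 11 low in wild-type replicate 1, 3 did so, of the 4 low in wild-type replicate 2, 2 did so, and neither of the 2 high in wild-type replicate 3 did so. These counts were not tested against one another.

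The genes high in wild-type replicate 2 split the mutant pools in one way. In 46 of the 60 genes (76.7%) both Bif3 replicates 1 and 2 were above both Bif3 replicates 3 and 4, beside 29.0% of all 19366 genes and 2 of the 31 genes high in wild-type replicate 1. Bif3 replicate 2 was the highest mutant pool for 43 of the 60 genes and Bif3 replicate 1 for 12, and the lowest was Bif3 replicate 3 for 35 and Bif3 replicate 4 for 20. Median deviations from the gene's own Bif3 mean, on the log2(CPM + 0.5) scale, were 0.42, 0.75, −0.63 and −0.51 in Bif3 replicates 1 to 4 for these 60 genes. For the 31 genes high in wild-type replicate 1 they were −0.07, −0.07, 0.18 and 0.04.

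The split was not particular to the members. Over 26255 genes that passed a low-count filter, the deviations of wild-type replicate 2 from the wild-type mean had a Pearson's r of 0.252 and 0.417 with those of Bif3 replicates 1 and 2, and of −0.304 and −0.302 with those of Bif3 replicates 3 and 4. Deviations of one genotype sum to 0 for each gene, so these values are not independent of one another, and they are given as a description across genes. Of the 37 genes that varied at least 4 times in Bif3 alone, 17 had both Bif3 replicates 1 and 2 above both 3 and 4, beside 29.0% of all 19366 genes. Wild-type replicate 2 was the departing high pool for 10 of the 37, at a wild-type ratio under the limit. The share of all genes with that departing pool was not taken, so nothing is read from the 10.

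Named members that were high in wild-type replicate 2 included genes with MADS-box names. GRMZM2G370777 (tunicate1, also m19), the MADS-box gene whose ectopic activity gives pod corn, was at 77.5, 98.4, 62.6 and 58.3 CPM in Bif3 replicates 1 to 4, and at 31.3, 127 and 43.7 CPM in wild-type replicates 1 to 3. GRMZM2G059102 (m20, by its name another MADS-box gene) was at 8.50, 22.2, 12.1 and 14.5 CPM in Bif3 and at 3.02, 27.8 and 6.76 CPM in wild-type. For both genes the 4 mutant pools lay inside the range of the 3 wild-type pools. Of the 11 other MADS-box genes found by symbol at a wild-type mean of 2 CPM or more, 10 were highest in wild-type replicate 1 and 1 in wild-type replicate 2, with wild-type ratios from 1.06 to 2.50.

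GRMZM2G074124 (YAB6), of the YABBY family of transcription factors active in lateral organs, was at 15.4, 15.5, 13.2 and 9.42 CPM in Bif3, against 5.78, 35.7 and 12.0 CPM in wild-type. It was the only YABBY gene among the members, yet all 6 YABBY genes found by symbol at a wild-type mean of 2 CPM or more were highest in wild-type replicate 2, with wild-type ratios from 2.56 to 6.19. ZYB15 (GRMZM2G529859), used as a marker of lateral organs, was at 56.6, 48.4, 28.9 and 25.8 CPM in Bif3 and at 20.9, 58.4 and 31.9 CPM in wild-type. In this gene Bif3 replicates 1 and 2 stood with wild-type replicate 2, and Bif3 replicates 3 and 4 with wild-type replicates 1 and 3. None of the 6 was called between genotypes by edgeR, DESeq2 or limma-voom, and none had an unadjusted p under 0.05 by any of them. The YABBY and MADS-box symbol searches were made after values had been seen and carry no test.

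GRMZM2G156079 (ZCN2), of the TFL1-like family that holds meristems in an indeterminate state in other plants, was at 4.00, 10.9, 8.66 and 6.98 CPM in Bif3, against 2.97, 18.9 and 5.88 CPM in wild-type. Bif3 replicate 1 was its lowest mutant pool, as in 4 of the 60 genes. Of 18 ear marker and stage genes looked at, most of them after values had been seen, none was a member, and 14 were lowest and 3 highest in wild-type replicate 2 of the wild-type pools. The 3 highest there were ZYB15, BD1 and TGA1, a glume regulator, the last by little at 1.51, 1.86 and 1.55 CPM in wild-type. The spikelet meristem genes IDS1 and SID1 did not go with BD1: IDS1 was at 54.1, 54.0 and 61.3 CPM and SID1 was at 10.1, 7.53 and 9.71 CPM in wild-type. RA3 (GRMZM2G014729), a trehalose phosphatase gene expressed at the base of axillary meristems, was at 61.5, 63.4, 102 and 117 CPM in Bif3 and at 184, 123 and 177 CPM in wild-type. Thus wild-type replicate 2 was the lowest of its genotype and Bif3 replicates 1 and 2 the lowest of theirs. BD1 (GRMZM2G307119), which fixes spikelet meristem identity, was at 2.99, 1.74, 0.112 and 0.0590 CPM in Bif3 and at 0, 0.892 and 0.0971 CPM in wild-type, below the mean that the rule asked for. What these genes say of the stage of each pool was not tested, since no stage was recorded for a pool.

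Wild-type replicate 2 was also the high pool for the first steps of benzoxazinoid synthesis. GRMZM2G085381 (bx1, the indole-forming enzyme of the pathway) was at 6.73, 15.4, 0.649 and 1.57 CPM in Bif3, against 0.647, 13.7 and 0.408 CPM in wild-type. GRMZM2G085661 (bx2, a cytochrome P450 that oxidises indole) was at 11.2, 19.1, 0.917 and 3.38 CPM in Bif3, against 2.11, 9.42 and 0.718 CPM in wild-type. Bif3 replicate 2 was above wild-type replicate 2 in both genes, Bif3 replicate 1 was above it for bx2 only, and the ratio over the mutant pools was 23.7 for bx1 and 20.8 for bx2. The 2 genes are next to each other in the gene order of the RefSeq table.

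All 8 Bx genes found by symbol with a wild-type mean of 2 CPM or more were highest in wild-type replicate 2, although for the other 6 the wild-type ratio was lower, down to 1.09 for bx8. Of the 8, BX5, BX3, bx8 and bx9, or 4 genes, rose in Bif3 (edgeR fit of all genes, Benjamini-Hochberg adjusted), beside 4.43% of all 19366 genes. None fell, also at an unadjusted p under 0.05, beside 1.07% of all 19366 genes called lower. DESeq2 called 3 of the 8 higher and limma-voom called 4. Neither bx1 (adjusted p = 0.911, edgeR) nor bx2 (adjusted p = 0.53, edgeR) passed. Each of the 4 that rose is outside the list of members. This list, too, was assembled after values had been seen.

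**Figure D3:**
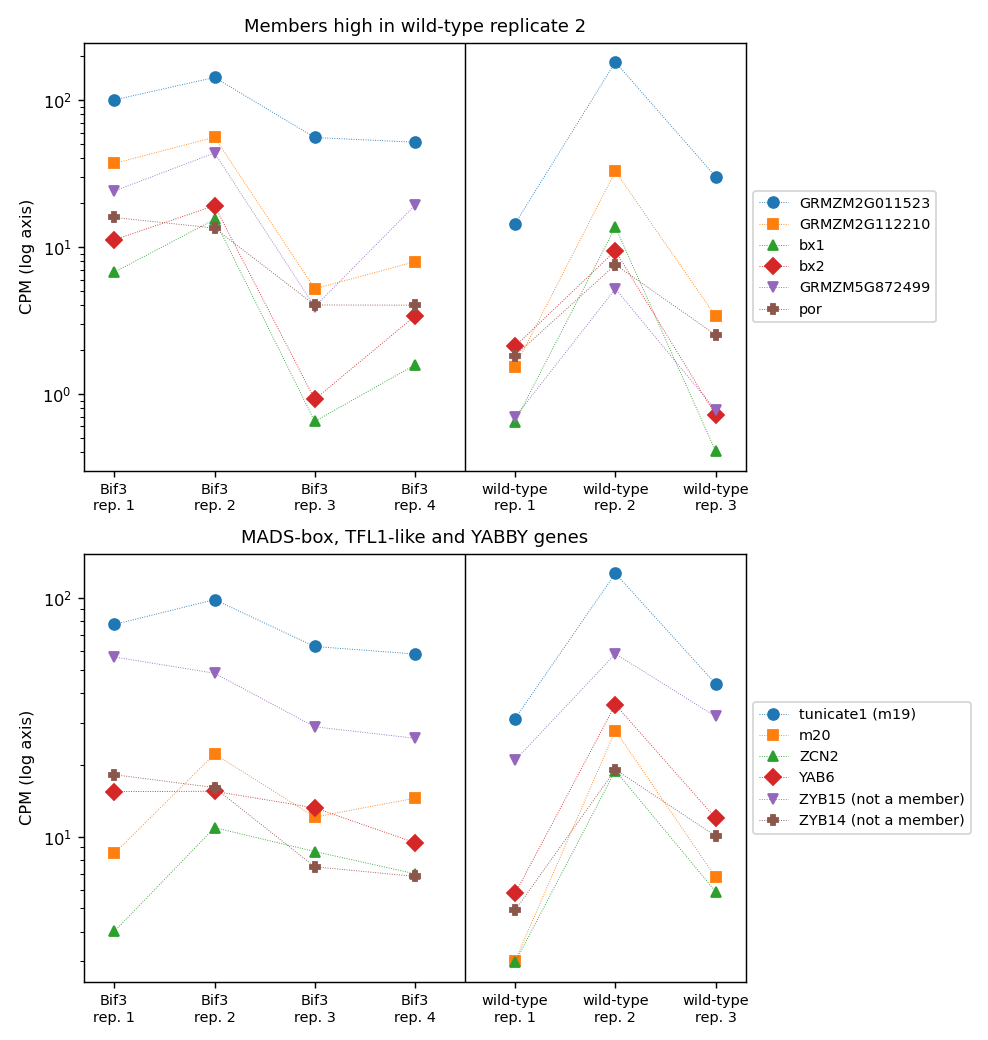
CPM (log axis) of 6 members high in wild-type replicate 2 (top) and of MADS-box, TFL1-like and YABBY genes (bottom) in the 4 Bif3 and 3 wild-type pools; each marker is 1 pool and dotted lines only join markers of one gene. In the top panel the markers of Bif3 replicates 1 and 2 lie above those of Bif3 replicates 3 and 4 for the 6 genes drawn. Of the 60 members of this group 46 showed that split, so these 6 do not stand for all. Wild-type replicate 2 is the highest wild-type pool in both panels.

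Some of the largest of these 60 genes had no name. GRMZM2G011523 was at 100, 143, 55.6 and 51.6 CPM in Bif3, and at 14.4, 181 and 30.1 CPM in wild-type. GRMZM2G112210 was at 37.0, 55.9, 5.19 and 7.93 CPM in Bif3, and at 1.53, 32.7 and 3.38 CPM in wild-type. In both, Bif3 replicates 1 and 2 lay nearer to wild-type replicate 2 than Bif3 replicates 3 and 4 did. GRMZM2G063909, the gene of this group with the highest wild-type mean, was different: it was at 52.7, 77.8, 68.5 and 51.4 CPM in Bif3, with 205 CPM in wild-type replicate 2 beside 37.2 and 75.7 CPM in wild-type replicates 1 and 3. In 34 of the 60 genes all 4 mutant pools were below wild-type replicate 2, and in 26 at least 1 mutant pool was above it. Over all 19366 genes, all 4 were below the highest wild-type pool in 9875, and at least 1 was above it in 9491. The 60 genes were chosen for a high wild-type pool, so nothing is read from how these counts compare.

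Single enzymes of the jasmonate and lignin routes were among the 60, picked after values had been seen. The searches for whole groups held no member, and they did not catch genes known by symbol alone. At a wild-type mean of 2 CPM or more, 30 jasmonate, wounding and defence genes had wild-type ratios up to 1.59. For 14 cell wall and lignin genes the ratios went up to 1.91. All 14, and all but 21 of the 30, were found only through the study's annotations of genes it had called. A call between genotypes favours genes with little spread within each, so the lack of members there cannot decide whether these groups varied. GRMZM2G067225 (aos1), allene oxide synthase of jasmonate synthesis, was at 7.51 to 10.9 CPM in Bif3, against 3.2, 13.3 and 4.47 CPM in wild-type. GRMZM2G131205 (cncr1), a cinnamoyl-CoA reductase of the lignin route, was at 4.52, 6.23, 1.41 and 1.77 CPM in Bif3, against 1.15, 6.42 and 1.07 CPM in wild-type. GRMZM2G128421 (IAA12, an Aux/IAA repressor of auxin signalling) was at 3.98, 6.86, 1.70 and 1.81 CPM in Bif3, against 0.863, 4.80 and 1.61 CPM in wild-type. The last of these genes showed the split of the mutant pools and so did cncr1, whereas aos1 changed little among them.

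GRMZM2G073351 (por), protochlorophyllide reductase of chlorophyll synthesis, was at 15.9, 13.4, 4.03 and 4.01 CPM in Bif3, against 1.82, 7.56 and 2.52 CPM in wild-type. The summed level of the 20 genes with leaf photosynthesis symbols, por included, was 30.0, 27.0, 15.6 and 14.2 CPM in Bif3 and 13.2, 23.0 and 18.5 CPM in wild-type. Much of that pattern was por itself: the 15 others with a count summed to 14.1, 13.5, 11.6 and 10.2 CPM in Bif3 and to 11.4, 15.4 and 16.0 CPM in wild-type, where replicate 3 was highest. Both sums include the porin that matched by name alone, so neither is a measure of green tissue. The part that green tissue has in the 60 genes was not tested. Sums over 7 genes with seed storage names were 11.6, 12.2, 9.71 and 9.80 CPM in Bif3 and 9.61, 6.62 and 8.19 CPM in wild-type, and those over 4 genes that the study's list annotates for anther or pollen were 109, 138, 87.7 and 88.9 CPM in Bif3 and 62.7, 59.7 and 59.4 CPM in wild-type. Neither was highest in wild-type replicate 2. The 4 anther or pollen genes were found only through the study's annotations of genes it had called, and edgeR called all 4 higher here. Their level in Bif3 thus follows from how they were found. Such calls also favour genes with little spread within each genotype, so nothing is read from this sum about anther tissue in a pool.

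Of the 31 genes high in wild-type replicate 1, 7 carried a heat shock name or annotation, among them the gene with the highest wild-type mean. GRMZM2G310431 (Hsp70, a chaperone that holds unfolded proteins) was at 31.1, 44.6, 57.2 and 62.9 CPM in Bif3, against 212, 37.3 and 73.2 CPM in wild-type. GRMZM2G024668 (HSP90-1, a chaperone that matures client proteins) was at 28.6, 22.4, 35.2 and 39.4 CPM in Bif3, against 157, 37.5 and 33.7 CPM in wild-type. In each gene wild-type replicate 1 alone stood out and the other 2 wild-type pools lay within or close to the range of the mutant pools.

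The small heat shock protein gene GRMZM2G007729 (hsp22) was at 0.353, 0.282, 0.447 and 0.216 CPM in Bif3, against 15.7, 0.392 and 1.09 CPM in wild-type. The small heat shock protein gene GRMZM2G083810 (hsp18f) was at 29.3, 51.4, 49.7 and 21.0 CPM in Bif3, against 124, 30.1 and 44.4 CPM in wild-type. GRMZM2G360681 (hsp101, the disaggregase that plants need to survive heat) was at 1.08, 1.30, 0.828 and 1.14 CPM in Bif3, against 7.21, 0.928 and 0.524 CPM in wild-type. These 3 showed the same lone pool over levels that differed by more than an order of magnitude between genes on the CPM scale, which does not correct for gene length.

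GRMZM5G802801 (hsp70-5) was at 5.11, 5.88, 7.20 and 7.75 CPM in Bif3, against 38.3, 5.01 and 6.39 CPM in wild-type, and AC209784.3_FG007, annotated as an HSP70 gene, was at 2.99, 3.67, 3.36 and 3.40 CPM in Bif3, against 25.6, 3.55 and 5.77 CPM in wild-type. Related Hsp70 copies can share reads, so values of single copies are uncertain. Of 16 genes found by a heat shock symbol, a search made after values had been seen, 10 had a wild-type mean of 2 CPM or more, and 6 of the 10 were members. All 10 were highest in wild-type replicate 1 of the wild-type pools, and none reached a ratio of 4 over the mutant pools. A wider list of heat shock and chaperone genes, which also drew on annotations of genes the study had called, held 17 genes at that mean. Of these, 7 were members and 16 were highest in wild-type replicate 1. Between genotypes edgeR called 2 of the 17 higher and 6 lower in Bif3, beside 4.43% and 1.07% of all 19366 genes. Drawing on genes already called raises such counts, so nothing is read from how they compare. Members outside this family that peaked in the same pool included GRMZM2G145041 (MYBE1, annotated as a REVEILLE-type MYB factor of the clock), at 1.72, 0.999, 2.01 and 1.95 CPM in Bif3, against 18.1, 2.30 and 3.79 CPM in wild-type.

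**Figure D4:**
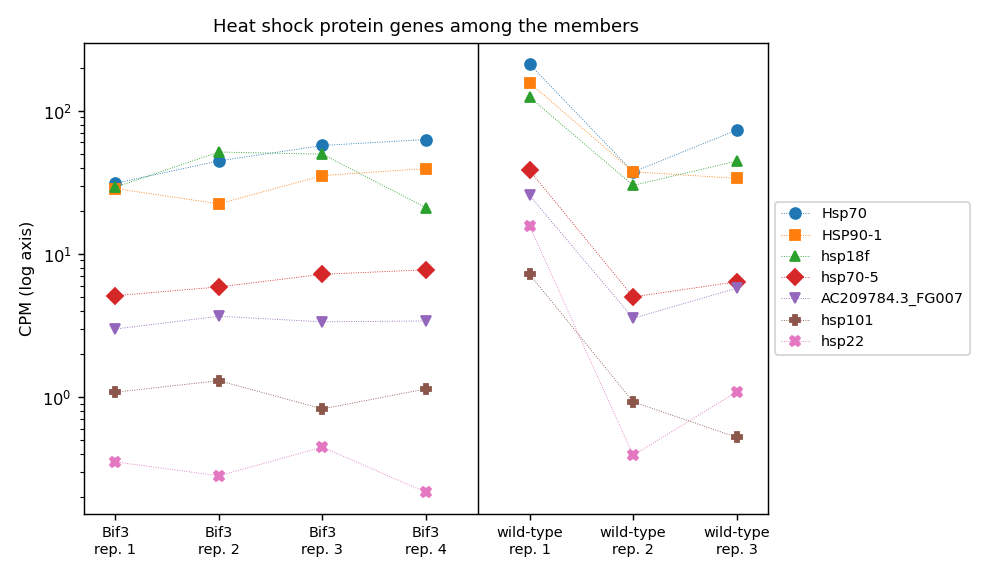
CPM (log axis) of the 7 members with a heat shock name or annotation in the 4 Bif3 and 3 wild-type pools; each marker is 1 pool and dotted lines only join markers of one gene. Wild-type replicate 1 is the highest of the 7 pools for each gene, for Hsp70 with 31.1 to 62.9 CPM in Bif3 against 212 CPM in that pool.

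Other genes of the 31 had no name. GRMZM2G089860 was at 0.188, 0.261, 0.268 and 0.354 CPM in Bif3, against 8.05, 0.178 and 0.330 CPM in wild-type. GRMZM5G841343, annotated with a methyl-binding domain, was at 0.282, 0.152, 0.336 and 0.354 CPM in Bif3, against 8.75, 0.499 and 0.155 CPM in wild-type. The choice of these genes for a high wild-type replicate 1 favours mutant pools below it, so nothing is read from the next count. All 4 mutant pools were below wild-type replicate 1 in each of the 31 genes, beside 9875 of all 19366 genes below their highest wild-type pool. GRMZM2G069911 came nearest to an exception: it was at 176, 186, 113 and 140 CPM in Bif3, against 200, 62.1 and 44.1 CPM in wild-type, and the mutant pools lay between wild-type replicate 1 and the other 2. GRMZM2G096553 was the gene of this group that varied in Bif3, at 7.51, 5.82, 8.75 and 0.630 CPM in Bif3 and 17.8, 0.999 and 1.26 CPM in wild-type.

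The 10 genes low in wild-type replicate 3 were all but missing from that pool. GRMZM2G348325 had 20.6, 89.0, 29.8 and 78.5 CPM in Bif3, against 95.8, 102 and 0.0388 CPM in wild-type, where the last value stood for 2 counts. GRMZM2G331214 had 13.5, 25.2, 7.09 and 14.5 CPM in Bif3, against 35.9, 21.2 and 0.0194 CPM in wild-type. GRMZM2G365111 had 22.1, 19.1, 6.71 and 9.27 CPM in Bif3, against 7.50, 15.1 and 0 CPM in wild-type. Of the 10 genes, 8 had 3 counts or fewer in wild-type replicate 3, and the other 2, GRMZM2G320152 and GRMZM2G070998, had 15 and 9. None of the 10 had a name.

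Some of these genes kept nearly fixed proportions over the other 6 pools. Counts of GRMZM2G348325 were 1.10 to 1.33 times those of GRMZM2G048065 in each of those pools, a factor of 1.22 between the extremes, and the ratio of GRMZM2G048065 to GRMZM2G145262 varied by a factor of 1.23. GRMZM2G331214 and GRMZM2G501277 kept their ratio within a factor of 1.37, and GRMZM2G306216 and GRMZM2G365111 within 1.29. Across these sets the proportions were looser, with a factor of 2.57 or more between members of different sets. Genes that share reads with a near-identical copy, or that overlap on the genome, would be counted together or split, and whether that holds here was not tested, so the 10 may be fewer than 10 independent measurements. GRMZM2G320152 and GRMZM2G145262 lie 3 places apart in the gene order of the RefSeq table, and no other pair of this group that the table places lies within 10.

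Over the mutant pools the 10 genes had ratios from 3.22 to 11.4, and none was at or near zero there: Bif3 replicate 2 was the highest pool for 6 and Bif3 replicate 1 for 4, and Bif3 replicate 3 was the lowest for 7. Their median deviations from the Bif3 mean were 0.11, 0.91, −0.89 and −0.04 in Bif3 replicates 1 to 4.

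**Figure D5:**
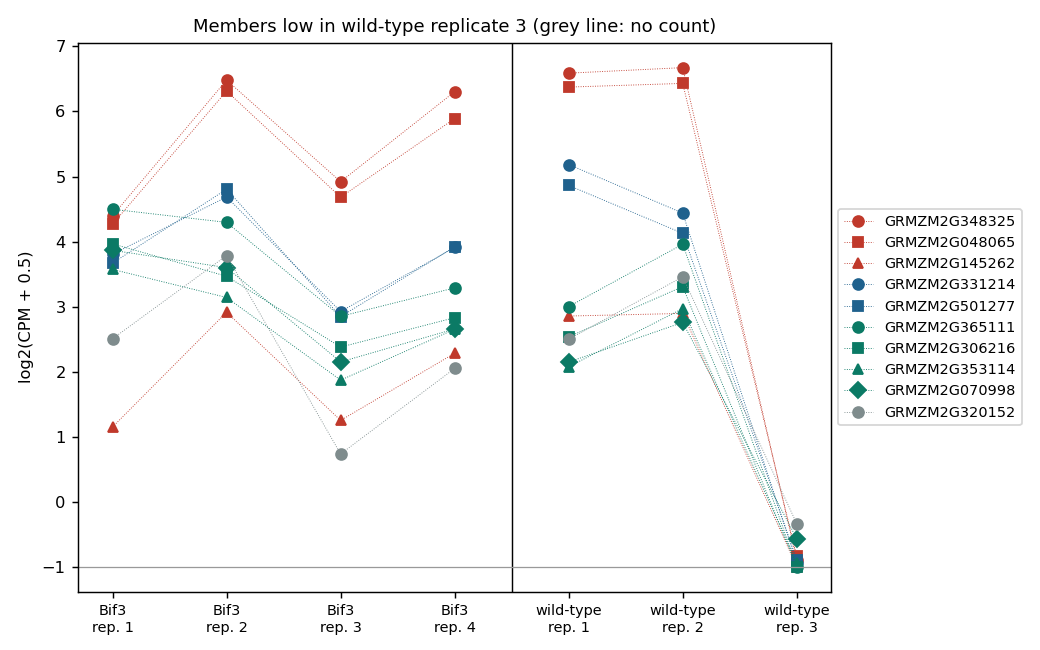
log2(CPM + 0.5) of the 10 members low in wild-type replicate 3 in the 4 Bif3 and 3 wild-type pools, with 1 colour for each set of genes that kept close proportions; each marker is 1 pool, dotted lines only join markers of one gene, and the grey line marks 0 counts. All 10 genes fall to the grey line or just above it in wild-type replicate 3, at 0 to 0.291 CPM, and no mutant pool does so.

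In a few members single pools of both genotypes stood far from the others. GRMZM2G137356 had 0.118, 0.0217, 11.7 and 0.0197 CPM in Bif3, against 0.0479, 12.6 and 7.28 CPM in wild-type. GRMZM2G390076 had 15.0, 15.5, 2.93 and 16.6 CPM in Bif3, against 0.120, 9.72 and 13.9 CPM in wild-type. GRMZM2G079171 had 0.235, 0.130, 0.0895 and 3.09 CPM in Bif3, against 0.168, 7.51 and 0.194 CPM in wild-type. Each of these genes lacked a name, or had only a clone name, and wild-type replicate 1 and Bif3 replicate 3 stood apart in the first 2 genes, against wild-type replicate 2 and Bif3 replicate 4 in GRMZM2G079171.

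The remaining genes low in wild-type replicate 1 were less extreme. GRMZM2G154523 had 30.4, 37.1, 20.6 and 24.5 CPM in Bif3, against 4.00, 61.6 and 19.1 CPM in wild-type, and GRMZM2G073079 and GRMZM2G138752 had wild-type ratios of 4.75 and 5.44. Their Bif3 ratios were 1.81, 1.68 and 1.99. In all 3 genes wild-type replicate 2 was the highest wild-type pool and the 4 mutant pools lay between wild-type replicates 1 and 2.

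The 4 genes low in wild-type replicate 2 included 2 that were low in the mutant. GRMZM2G116592, annotated as a C3H zinc finger gene, was at 0.235, 0.261, 0.358 and 0.177 CPM in Bif3, against 6.62, 0.375 and 3.90 CPM in wild-type. GRMZM5G898684, annotated as an alpha/beta-hydrolase gene, was at 0.212, 0.152, 0.201 and 0.767 CPM in Bif3, against 3.31, 0.731 and 5.05 CPM in wild-type. In both genes wild-type replicate 2 was at or near the level of the mutant pools. GRMZM2G069016, at 4.59 to 7.36 CPM in Bif3, against 9.06, 2.23 and 6.41 CPM in wild-type, and GRMZM2G559308, at 0.447 to 1.99 CPM in Bif3, against 2.54, 0.607 and 2.91 CPM in wild-type, completed this group.

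To see how such genes enter the comparison of genotypes, their places were read from an edgeR quasi-likelihood fit of all 45361 genes with a count, with genes called at p under 0.05, adjusted p under 0.1 and a fold change over 1.5. Among the 19366 genes with a wild-type mean of 2 CPM or more, 858 (4.43%) were called higher and 207 (1.07%) lower in Bif3. Of the 118 members, 3 were called higher and 20 lower. Since the wild-type values that chose the members enter the same fit, these calls are a description, and nothing is read from how the shares compare.

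Of the 20 lower calls, 17 were genes high in wild-type replicate 1. The call depended on the tool, with 5 of the 31 called lower by the newer edgeR quasi-likelihood form, 7 by DESeq2, 6 by edgeR after filterByExpr and 1 by limma-voom. These fits called 0.81% to 1.08% of all genes with a wild-type mean of 2 CPM or more lower. Leaving out wild-type replicate 1, the pool that chose these genes, moved the fold change towards 0 by construction. Without it, 3 of the 17 were called lower and 3 of the 31 were called higher. Of all genes at that mean, 1.08% were then called lower and 4.85% higher. The median log2 fold change of the 31 genes was then −0.03, beside −1.29 with that pool. Hsp70 fell by 1.15 on the log2 scale (SE 0.36, adjusted p = 0.0916, edgeR with Benjamini-Hochberg adjustment), beside a log2 fold change of −0.21 when that pool was left out. For hsp22 (GRMZM2G007729) it was −4.15 (SE 0.82, adjusted p = 0.00645, edgeR) and −1.23 without that pool, at which the gene was no longer called. The 3 of the 17 that were still called lower without that pool were GRMZM2G062129, GRMZM2G145041 and GRMZM2G302245, the last annotated as an RCC1 repeat gene.

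For the genes high in wild-type replicate 2, leaving out the pool that chose them raised the fold change by construction. With all pools, 2 of the 60 were called higher in Bif3 and none lower by edgeR, with 7 higher and 3 lower at an unadjusted p under 0.05. DESeq2 and limma-voom called none lower either. Without wild-type replicate 2, 50 of the 60 were called higher, at a median log2 fold change of 1.5 beside 0.24 with it. The calls over all members were then 58 higher and 31 lower. Of all genes with a wild-type mean of 2 CPM or more, that fit called 5.11% higher and 1.68% lower. Without wild-type replicate 3, 32 members were called lower, beside 1.13% of all genes at that mean. Without wild-type replicate 1 the members' calls were 5 higher and 13 lower, beside 4.85% and 1.08% of those genes. Without Bif3 replicate 3 the members' higher calls were 9, beside 5.68% of those genes, and without Bif3 replicate 4 they were 6, beside 4.02%. The members' calls thus moved with single pools of either genotype. Since wild-type values chose the members, nothing is read from how these shares compare. Over all genes fitted, the lower calls numbered 325 with all pools and 512 without wild-type replicate 2.

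The 2 members of that group that rose in Bif3 were called without each of the wild-type pools as well. GRMZM2G040095 (lox6, a lipoxygenase) was at 15.9, 24.7, 11.2 and 26.6 CPM in Bif3, against 2.18, 9.04 and 2.0 CPM in wild-type, and its log2 fold change was 2.11 (SE 0.41, adjusted p = 0.00549, edgeR). GRMZM5G872499, annotated after the Arabidopsis phosphate exporter PHO1, was at 24.0, 43.6, 3.91 and 19.2 CPM in Bif3, against 0.695, 5.19 and 0.777 CPM in wild-type, and its log2 fold change was 3.28 (SE 0.65, adjusted p = 0.00666, edgeR). The mutant pools of lox6 were all above the wild-type pools, whereas Bif3 replicate 3 of GRMZM5G872499 was below wild-type replicate 2. An exact permutation test of the CPM means over the 7 pools, counting both tails, gave p = 0.0571 for lox6, the smallest that this test can give with 4 against 3 pools, and p = 0.114 for GRMZM5G872499, and p = 0.229 for each after adjustment over the 12 members tested.

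Both genes low in wild-type replicate 2 that were called lower lay below wild-type in the test of all genes: GRMZM2G116592 fell by 3.83 on the log2 scale (SE 0.60, adjusted p = 0.00116, edgeR) and GRMZM5G898684 by 3.17 (SE 0.55, adjusted p = 0.00281, edgeR). The remaining calls were the 2 genes high in wild-type replicate 3. GRMZM2G013115, at 0.330, 0.738, 0.693 and 0.354 CPM in Bif3 and 0.264, 0.196 and 15.3 CPM in wild-type, was called lower at a log2 fold change of −3.36, but with wild-type replicate 3 left out the value was 1.18 and the gene was not called. AC203989.4_FG001, at 3.86, 3.76, 10.7 and 9.72 CPM in Bif3 and 2.23, 1.02 and 4.47 CPM in wild-type, was called higher at a log2 fold change of 1.42 (adjusted p = 0.0706, edgeR). It was called in 8 of 17 alternatives, and not by DESeq2, by limma-voom or without wild-type replicate 1. The exact permutation test gave p = 0.171 before adjustment.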

How the data were processed

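Ear primordia of Bif3 and wild-type plants were sequenced as stranded mRNA libraries in 7 pools, each of 3 ears. Raw read counts per gene were deposited by the authors as 1 table. The study's methods name Trimmomatic, HISAT alignment to the B73v3 genome, HTSeq-count and edgeR, whereas the submitters' processing notes name TopHat2 2.1.1 and Cuffdiff, and the strand setting of the counting is not given in the sources used here, so overlapping and antisense genes can share reads. Nothing says that pools of a genotype came from separate plantings, so p-values measure the spread between pools. CPM was the count divided by the column sum, times 1000000. Genes called between genotypes came from edgeR 4.0.16 (quasi-likelihood fit, TMM, Benjamini-Hochberg adjustment over 45361 genes), which was also tested on simulated data. DESeq2 1.42.0, limma 3.58.1, filters, scalings, limits, a replicate block and single omitted pools were tried as alternatives. Columns were matched to samples by title, and no column was left out. The members and gene lists were chosen with earlier results of these data known, and lists by symbol alone were added after values had been seen. Genes were named by fixed rules (in each of the 6 groups the 3 largest ratios and the 3 highest wild-type means, list members, and the strongest calls), and aos1, cncr1, IAA12, hsp101, MYBE1, GRMZM2G112210, GRMZM2G096553, GRMZM2G302245, the further genes low in wild-type replicate 3 and the genes outside the members (ZYB15, other stage genes, the Bx genes) were picked after their values were seen. Names came from RefSeq's maize gene table and the study's annotated list of changed genes, whose annotations cover only genes the study had called. Promoter sequences were not analysed here.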

Additional observations from a re-analysis of the deposited data

Results flagged for a closer look

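In 4 members 1 Bif3 pool was far from the other 3, with a gap to its nearest pool that passed Dixon's 95% limit for a share of the range of 4 samples. Chance passes this limit in about 1 of 20 groups, and 38 sets of Bif3 values were looked at. GRMZM2G137356 was at 11.7 CPM in Bif3 replicate 3 (gap over range 0.992), GRMZM2G390076 at 2.93 CPM in Bif3 replicate 3 (0.878), GRMZM2G079171 at 3.09 CPM in Bif3 replicate 4 (0.951) and GRMZM5G898684 at 0.767 CPM in Bif3 replicate 4 (0.903). The first 3 also had a wild-type pool apart from the others, as described above, and their departure in both genotypes was not tested.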

How the results depend on the processing

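Limits on level or ratio moved the number of members: it was 193 at a mean wild-type CPM of at least 1, 61 at 5, 1848 at 10 counts over the wild-type pools, 189 at a ratio of 3 and 68 at a ratio of 6, and 43 to 99 when one wild-type pool was left out. Genes high in wild-type replicate 2 then numbered 107, 26, 674, 91 and 33, and were the largest group under each of these limits. Genes high in wild-type replicate 1 numbered 321 at 10 counts, 48 at a ratio of 3 and 15 at a ratio of 6, and those low in wild-type replicate 3 numbered 17 at a mean of 1 CPM, 6 at 5 CPM and 212 at 10 counts. The share of members that varied in Bif3 was 19.7% at 5 CPM, 50.3% at 10 counts, 19.1% at a ratio of 6 and 19.5% with 0.5 CPM added, and 17.8% to 24.6% when one Bif3 pool was left out, each above the share of all genes under the same limit (at most 7.92%). TMM and DESeq2 scaling gave 119 members each. Between genotypes, lower calls over all genes were 189 when every gene of the table was fitted and 857 without a limit on fold change. Leaving out one pool gave 1213 to 2200 higher and 238 to 512 lower calls over all genes, and 3 to 58 higher and 13 to 32 lower calls among members. Members called lower were 12 with every gene fitted, 8 after filterByExpr, 7 with edgeR's newer quasi-likelihood form, 9 with DESeq2 and 2 with limma-voom. These fits called 0.74% to 1.08% of all genes with a wild-type mean of 2 CPM or more lower. With the replicate number as a block, 30 members were called higher and 12 lower. Of these, 24 were genes high in wild-type replicate 2 that were called higher, beside 2 without the block. The fit with the block called 4.90% of all genes at that mean higher and 1.26% lower. Deviations of pools with the same number correlated at −0.07, 0.42 and 0.24 for numbers 1 to 3. For numbers 2 and 3 this was the highest value of any Bif3 pool with that wild-type pool, and for number 1 it was not. These values do not settle whether the numbers pair the pools. No label says that they do, so they were not taken to. Leaving out one pool reversed 3 log2 fold changes, each of a gene high in the pool left out: GRMZM2G013115 ranged from −3.95 to 1.18 (without wild-type replicate 3), GRMZM2G089860 from −3.94 to 0.047 and GRMZM2G160925 from −3.28 to 0.38 (both without wild-type replicate 1). Over all alternatives the 23 called members gave 391 results, of which 283 kept the call. An adjusted p limit of 0.05 and the lack of a fold change limit reused the main fit, and the latter keeps every call by definition. The cause of the other changes was not tested. With 3 or 4 pools a genotype, a departure of one pool is a single observation.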
